A study of Mus musculus with 6 samples.

Results

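Imprinted genes were followed through an array comparison of the mouse otic vesicle, with Nnat, the gene of the small membrane protein neuronatin, at the head of the list. The 38 members were taken by symbol as known imprinted genes and neighbours, in a list drawn up with earlier results of these arrays known. Of these, 35 were read by 93 probe sets that carry their symbol alone, among 18193 genes so named. On the arrays 32 members lay above the filter on dim probe sets, and Zim1, Phlda2 and Ascl2 lay below it. H19 was read only by a probe set that it shares with Mir675, and no probe set used here carries Zrsr1 or Rtl1 alone, so these 3 symbols have no value of their own.

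The tested embryos, called Mest-KO, were T-Cre conditional Tbx1 knockouts at embryonic day 11.5. The controls were T-Cre conditional Tbx1 heterozygotes of the same age, so both groups carried T-Cre, a recombinase expressed from regulatory sequence of the mesoderm gene T (Brachyury), and the controls kept 1 working Tbx1 allele where the recombinase acts. "Mest" here stands for mesoderm and has nothing to do with the imprinted gene Mest, which is a member of the list and was not deleted. Each of the 3 arrays of a group held RNA of microdissected otic vesicles, the epithelial sacs that form the inner ear, from both ears of 3 pooled embryos. The comparison asks how the vesicle differs once the surrounding mesoderm lacks Tbx1, a transcription factor gene. The sources used here give neither the strain nor the sex of the embryos.

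Imprinted genes are transcribed mainly from 1 parental allele, which is set by DNA methylation laid down differently in egg and sperm. They lie in clusters that share an imprinting control region, and the methylated copy of such regions is held through early development by the zinc finger protein ZFP57, which binds a methylated TGCCGC motif. Many members act on fetal growth: paternally expressed genes often promote it, as Igf2 does, and maternally expressed genes often restrain it, as Igf2r and Cdkn1c do. An array of this kind sums both alleles, so it measures the level of a transcript and not its imprint.

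The start-site windows of 4 members whose levels the text turns on are shown first, 250 bases before to 50 bases after the RefSeq start on build GRCm38.p6, 5′ to 3′ along the gene. Capitals mark CG dinucleotides, the bases at which methylation is placed. The Nnat window is chr2:157559828-157560127 on the plus strand, inside the gene Blcap. The Peg3 window is chr7:6730370-6730669 on the minus strand and shares 263 bases with the window of its divergent neighbour Usp29. The Igf2r window is chr17:12769657-12769956 on the minus strand, and the Rasgrf1 window is chr9:89909525-89909824 on the plus strand.
Nnat: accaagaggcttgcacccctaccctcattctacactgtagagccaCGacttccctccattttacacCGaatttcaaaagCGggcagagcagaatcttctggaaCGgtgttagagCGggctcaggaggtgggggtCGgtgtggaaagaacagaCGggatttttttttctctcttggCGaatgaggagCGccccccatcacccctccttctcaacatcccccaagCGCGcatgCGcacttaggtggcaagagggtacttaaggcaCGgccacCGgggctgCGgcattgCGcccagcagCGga
Peg3: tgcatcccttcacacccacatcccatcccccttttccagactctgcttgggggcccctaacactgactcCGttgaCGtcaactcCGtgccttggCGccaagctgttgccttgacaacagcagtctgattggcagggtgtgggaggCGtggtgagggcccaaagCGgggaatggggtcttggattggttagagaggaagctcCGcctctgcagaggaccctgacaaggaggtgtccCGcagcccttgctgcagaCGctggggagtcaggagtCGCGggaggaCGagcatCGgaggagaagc
Igf2r: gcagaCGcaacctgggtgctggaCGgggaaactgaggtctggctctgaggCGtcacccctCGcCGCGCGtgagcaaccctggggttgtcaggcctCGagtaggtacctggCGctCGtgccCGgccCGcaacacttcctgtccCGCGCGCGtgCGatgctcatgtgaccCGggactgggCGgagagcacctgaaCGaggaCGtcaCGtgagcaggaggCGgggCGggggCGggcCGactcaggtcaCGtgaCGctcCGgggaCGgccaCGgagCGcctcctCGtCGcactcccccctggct
Rasgrf1: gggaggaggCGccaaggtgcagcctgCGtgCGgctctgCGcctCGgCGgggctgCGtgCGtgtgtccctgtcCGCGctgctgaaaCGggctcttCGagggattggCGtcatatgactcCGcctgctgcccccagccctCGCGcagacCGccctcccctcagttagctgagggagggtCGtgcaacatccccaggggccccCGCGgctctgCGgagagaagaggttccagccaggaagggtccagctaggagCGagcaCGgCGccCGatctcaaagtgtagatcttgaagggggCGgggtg
The Igf2r window held 34 CG dinucleotides, the Rasgrf1 window 26, the Nnat window 17 and the Peg3 window 13. RefSeq windows were found for 31 of the members, 49 in all, and their median was 14 CG dinucleotides against 7 over 32851 mouse windows. At least 10 were present in 31 member windows (63.3%), against 43.5% of all windows. The letters TGCCGC, searched on both strands and holding a CG themselves, occurred in 11 member windows (22.4%), from 10 genes, against 11.6% of all windows. Of the 4 windows shown, the Nnat window held the motif once, on the minus strand from position 278, and the other 3 held none. A match describes these letters in this window only. The members lie on 9 chromosomes, and 20 of the 38 lie on chromosome 7.

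The targeted gene gave no check of the labels. Tbx1 had an intensity of 897, 703 and 717 in Mest-KO 1 to 3, against 881, 698 and 778 in controls 1 to 3, a log2 difference of -0.03 with a 95% interval from -0.410 to 0.356. The deletion concerned mesoderm, and the sources used here do not place the probe set inside or outside the deleted stretch. Some arrays stood apart from the rest. On the first principal component, 35% of the variance, Mest-KO 3 lay at 64.6 and the other 5 arrays between -20.0 and -6.65, and it had the highest median intensity before normalization. Xist, transcribed from the inactive X of female cells, was 18.8 in Mest-KO 1, against 2589 to 4878 in the controls, and the Y-linked Eif2s3y was 13.4 in control 2, so these pools appear to hold 1 sex each. The members of smallest p are given below with and without these arrays.

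The cell types of the dissection were also read by markers. For 9 otic epithelial genes the mean log2 intensity was 11.15, 11.00 and 10.93 in Mest-KO 1 to 3 and 11.09, 11.05 and 11.00 in controls 1 to 3, so the vesicle was present throughout. For 9 mesenchyme genes it was 7.43, 8.94 and 8.39 in Mest-KO and 8.43, 8.05 and 7.26 in control. For 6 neuron genes it ranged from 8.88 to 9.24 in Mest-KO and from 8.77 to 9.08 in control. Of the neuron genes 2 were higher and 4 lower in Mest-KO (median log2 difference -0.04). Of the mesenchyme genes 7 were higher and 2 lower (median 0.52). Single markers differed from their lists at an unadjusted limma p: Neurod1 was higher in Mest-KO by 0.57 (p 0.00656) and Elavl3 by 0.38 (p 0.0190), and the mesenchyme gene Lum was lower by 0.48 (log2 difference -0.48, p 0.00712), each without overlap and with 0 passing after adjustment. These were 2 of the 6 neuron genes and 1 of the 9 mesenchyme genes. Over all genes, 5.14% had an unadjusted limma p under 0.05 and 10.6% did not overlap. By its mean, the mesenchyme marker level varied among the arrays of both groups. In RNA from whole vesicles fewer cells of a type cannot be told apart from less RNA per cell.

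The imprinted genes were evenly split between the directions. Of the 32 members tested, 16 were higher and 16 lower in Mest-KO, where 49.1% of all genes were higher. Their median log2 difference was -0.01 against -0.00 over all 12462 genes, and 24 lay within 0.25 of 0. Limma without a variance trend called 0 members at an adjusted p under 0.05, as it called 0% of all genes. At an unadjusted p under 0.05 stood 7 members (21.9%): Peg3 and Igf2r higher, Nnat, Igf2, Ddc, Magel2 and Rasgrf1 lower. The share over all genes was 5.14%, of which 2.23% were higher and 2.91% lower. The intensities of the groups did not overlap for 9 members (28.1%), the same 7 with Impact higher and Commd1 lower, against 10.6% of all genes (4.74% higher, 5.85% lower). These are descriptions of a list chosen with results of these arrays known. The count of 9 depended on the scaling: in the deposited scaling without quantile normalization it was 7, against 10.9% of all genes, with Magel2, Ddc and Impact overlapping and Mkrn3 added, and with median centring it was 4, against 6.97%. Without Mest-KO 3 it was 11, against 21.5% of all genes, and without Mest-KO 1 and control 2 it was 15, against 37.2%, since fewer arrays overlap less often. The count of 7 was 5 without Mest-KO 3 and 3 when Mest-KO 1 and control 2 were left out, against 5.28% and 5.71% of all genes, and Nnat was among them each time. It was 7 with a variance trend (6.1% of all genes), 5 with the mesenchyme covariate (4.65%) or probe sets averaged per gene (4.31%), 4 with the deposited scaling (5.39%) and 3 with median centring (3.76%). Over probe sets instead of genes, 11 of 73 (15.1%) had an unadjusted p under 0.05, against 3.98% of all 27022. The same number did not overlap between the groups, against 9.37%. Both counts include a dim Ube3a probe set that passed the filter only through its Mest-KO values. The first count also holds all 3 Rasgrf1 and both Igf2 probe sets, so these are not independent readings.

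**Figure D1:**
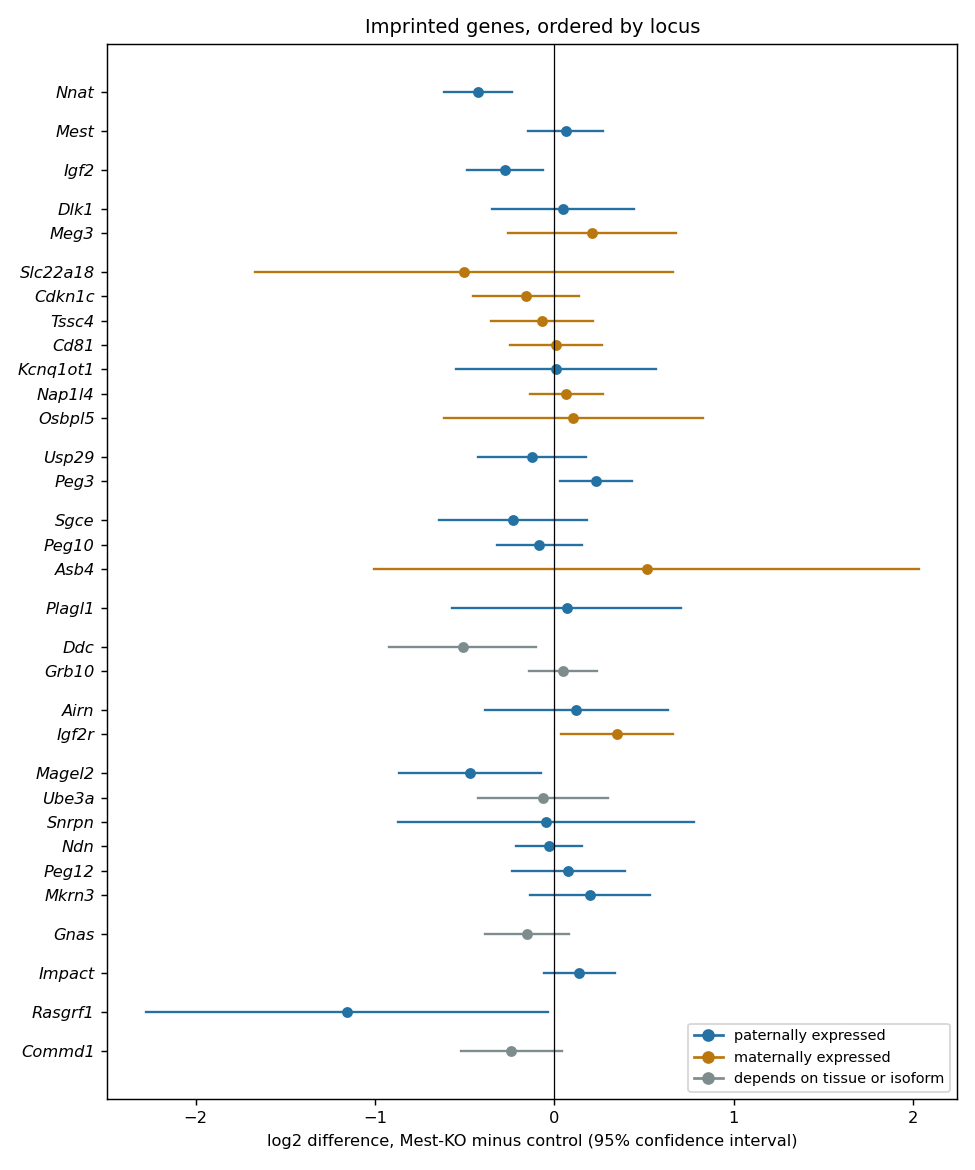
Log2 difference, Mest-KO minus control, of the 32 imprinted genes past the filter, ordered by locus and coloured by the usually expressed parental copy, with the 95% confidence interval of the limma fit without a trend. The interval of Nnat runs from -0.613 to -0.237, and most members lie within 0.25 of 0.

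Members were split by the parental copy listed as usually expressed, which was not measured in the otic vesicle. The 18 listed as paternally expressed were divided 9 and 9 between higher and lower in Mest-KO. Of the 9 listed as maternally expressed and past the filter, 6 were higher and 3 lower. They include Cd81, Nap1l4 and Osbpl5, higher by 0.01, 0.07 and 0.11, and Tssc4 at -0.07. Whether these are expressed from 1 allele in this tissue was not tested. The other 5, listed with an expressed allele that depends on the tissue or promoter, had 1 higher and 4 lower. The medians were -0.01, 0.07 and -0.15 on the log2 scale, each smaller than the change of Nnat alone. No test was made of the difference between these classes.

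Nnat, paternally expressed and known as a gene of differentiating neurons and endocrine cells, had the smallest p of the list. Its intensity was 7589, 7567 and 7312 in Mest-KO 1 to 3, against 10315, 9582 and 10276 in controls 1 to 3. Every Mest-KO pool was below every control pool, and the gap between the groups was wider than the spread inside either. The means were 7489 ± 154 in Mest-KO and 10058 ± 413 in control (SD, n = 3 each), a level 1.34-fold lower in Mest-KO. The log2 difference was -0.42 (SE 0.0778, 95% interval -0.613 to -0.237). With limma's single variance prior the unadjusted p was 0.00133, rank 29 of 12462 genes, and the adjusted p was 0.549, so the call was not made. With a prior that follows the intensity (limma with trend) the SE was 0.0578 and the adjusted p 0.0132, and Nnat was 1 of 13 genes called, 0.104% of those tested (0.0963% counting only lower genes). Over probe sets, that of Nnat was the only member among 14 called, 0.0518% of those tested. That probe set call was lost whichever array was left out. The exact two-sided permutation p was 0.1, the smallest that 3 against 3 arrays can give. Nnat was among the genes called with the trend in an earlier reading of these same arrays. The call, the rank and the p-values therefore describe a gene already picked from these data and are no independent support.

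The 2 fits differ in the spread they assign to a bright gene. The residual SD of Nnat was 0.0473 on the log2 scale, and the median over genes was 0.0858 in the brightest decile of genes and 0.456 in the dimmest. The single prior, worth 2.32 degrees of freedom, pools all of these, while the trend, worth 7.90, pools genes of like intensity. With the trend Nnat was called in 7 of 14 settings (adjusted p from 0.00885 to 0.177), and without it in 0 of 18 other settings (0.280 to 0.999). The difference was negative in all of them, from -0.63 to -0.41. Filters, the floor, the trend and the block do not alter the estimate of -0.42. Since the groups did not overlap, leaving out arrays could hardly change its sign either. The shared sign is therefore no support. In limma with trend the call was lost without Mest-KO 3 (adjusted p 0.0665), control 1 (0.177), control 2 (0.0566) or control 3 (0.117), with no filter (0.0632), with the replicate block (0.0631), and in the 4 pools that hold both sexes, where the difference was -0.47 (0.0932).

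**Figure D2:**
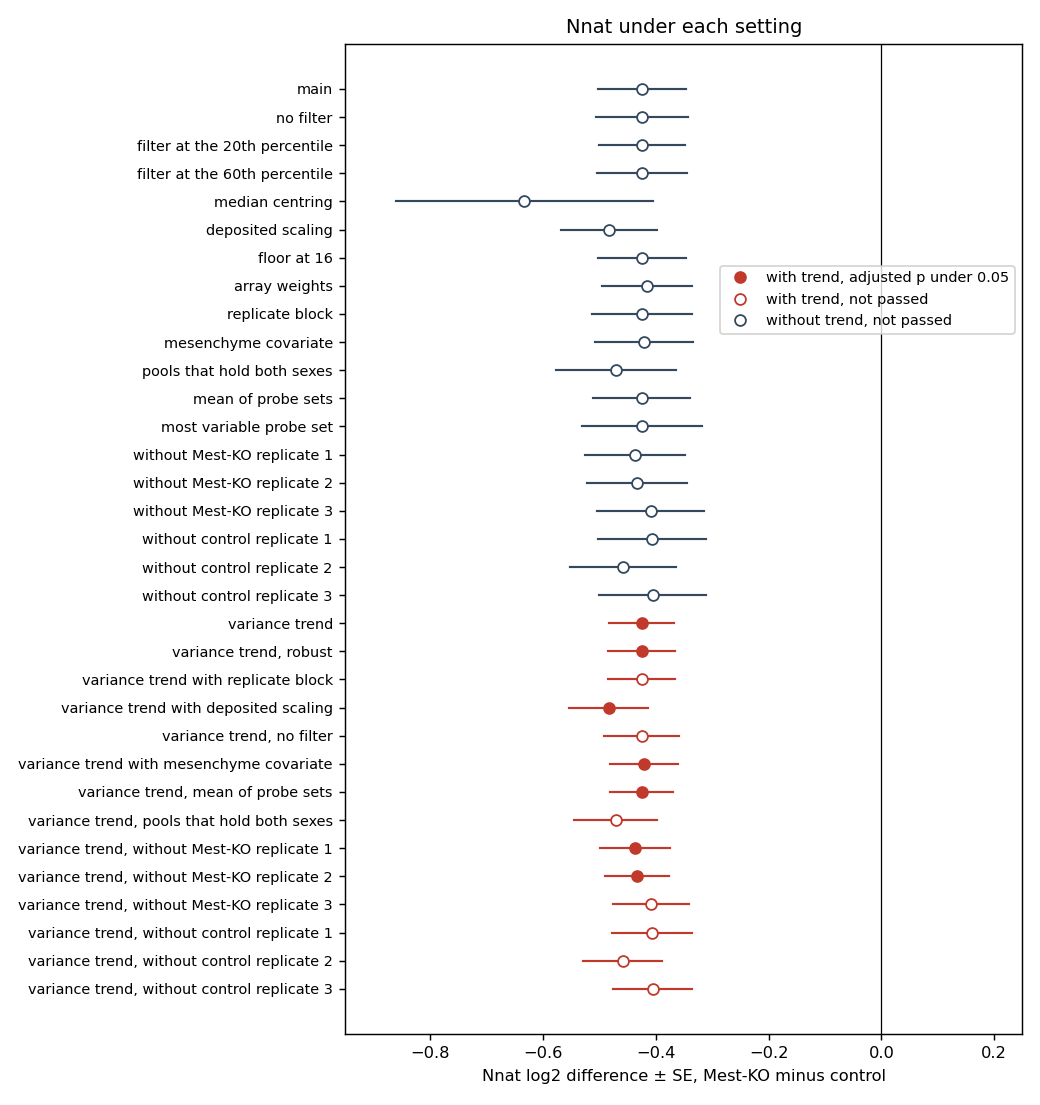
Log2 difference of Nnat, Mest-KO minus control, with its SE, under each processing setting, those with the variance trend in red and those without it in blue. Filled points mark an adjusted p under 0.05, and the 7 filled points are all red; all points lie below 0, from -0.63 to -0.41.

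Nnat was also set against the mesenchyme markers. Over the 6 arrays Pearson's r between Nnat and their mean log2 level was -0.31 (exact permutation p adjusted over 32 relations 0.749), and with the marker level as a covariate the difference was -0.42. Blcap, the host gene in whose intron Nnat lies and a regulator of cell growth, had 2649, 2570 and 2981 in Mest-KO, against 3128, 3044 and 2864 in control. Those groups overlapped, and the log2 difference was -0.14 (SE 0.0933). Nnat had only 1 probe set, so its value has no second reading on the array. Of the 6 neuron markers, Neurod1 and Elavl3 were higher in Mest-KO, where Nnat was lower, and the other 4 were slightly lower. The median log2 difference of the 6 was -0.04, and the part of neurons in the Nnat level was not tested.

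**Figure D3:**
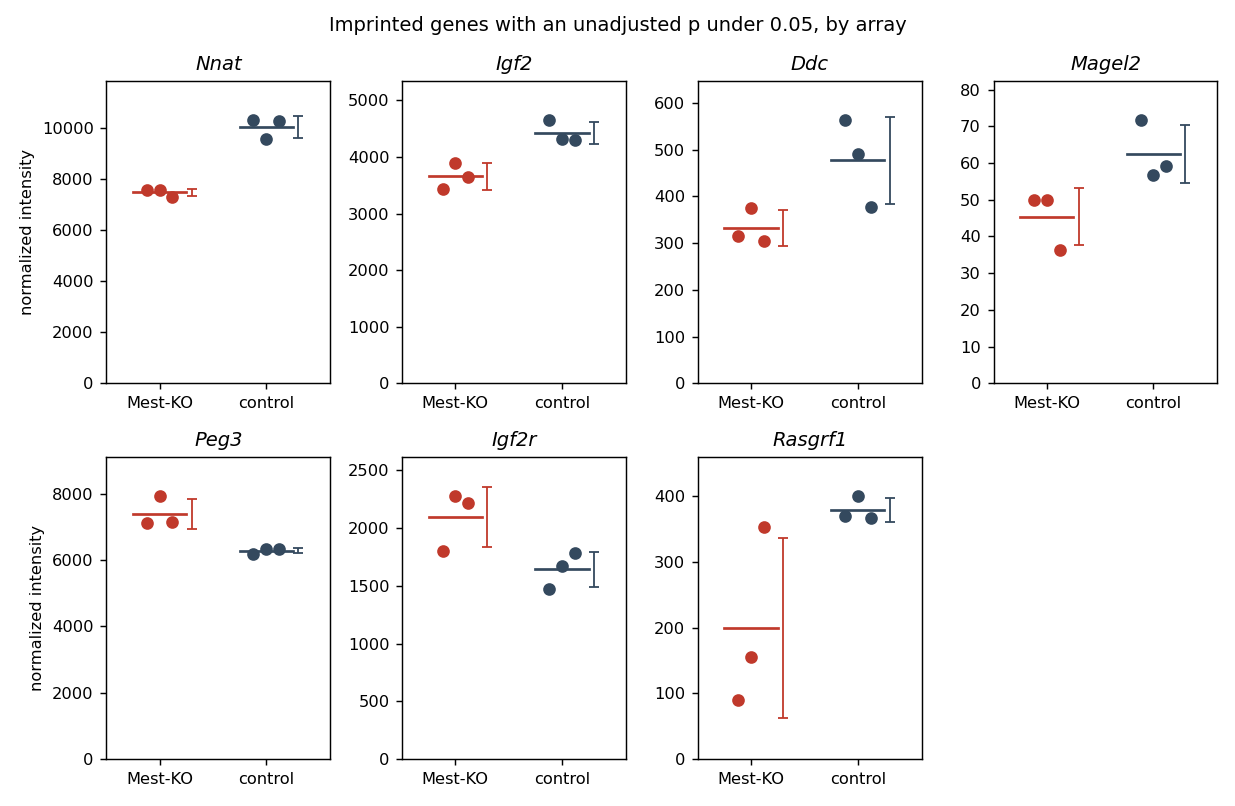
Normalized intensity on each array for the 7 members with an unadjusted p under 0.05, Mest-KO pools left of control pools, each gene on its own axis from 0, with the mean (line) and SD (bar). The Mest-KO points of Nnat lie between 7312 and 7589, all below the control points.

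Among growth factors and their receptors, Igf2 and Igf2r stood apart in opposite directions. Igf2, the paternally expressed fetal growth factor, had 3432, 3896 and 3638 in Mest-KO, against 4645, 4323 and 4296 in control, and the groups did not overlap. Its log2 difference was -0.28 (SE 0.0877, limma unadjusted p 0.0187, adjusted 0.909). A second, much dimmer Igf2 probe set differed by -1.25, with 93.2, 57.1 and 25.7 in Mest-KO and 128, 167 and 86.5 in control, which overlap. The probe set that H19 shares with Mir675, outside the comparison, had 7951, 8152 and 7772 in Mest-KO, against 8395, 8286 and 7997 in control. Those groups overlapped, with a log2 difference of -0.05. Igf2r, the maternally expressed receptor that carries IGF2 to lysosomes, had 1798, 2278 and 2221 in Mest-KO, against 1476, 1669 and 1782 in control. Every Mest-KO pool was above every control pool, though Mest-KO 1 and control 3 nearly met. The log2 difference was 0.35 (SE 0.129, limma unadjusted p 0.0326, adjusted 0.909), and the second Igf2r probe set gave 0.07. Without Mest-KO 3 the differences were -0.28 for Igf2 and 0.31 for Igf2r, and in the 4 pools of both sexes -0.24 and 0.47.

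Other regulators of growth and cell signalling overlapped between the groups. Grb10, an adaptor that dampens insulin receptor signalling, had 12458, 12953 and 11880 in Mest-KO, against 12205, 12105 and 11707 in control, a log2 difference of 0.05 with a 95% interval from -0.140 to 0.239. Its other probe sets gave 0.03 and -0.27. Gnas, whose locus encodes the stimulatory G protein subunit, had 9405, 7933 and 8642 in Mest-KO, against 9191, 9564 and 10091 in control, a difference of -0.15 (SE 0.0962), while 2 dimmer probe sets gave 0.14 and 0.40. The cyclin-dependent kinase inhibitor gene Cdkn1c averaged 1578 ± 201 in Mest-KO and 1753 ± 124 in control, a log2 difference of -0.16. Dlk1, a Delta-like membrane protein gene, differed by 0.05, and the zinc finger gene Plagl1 by 0.07. Phlda2, a placental growth restrainer, was below the filter with 10.4 to 53.3 in Mest-KO and 28.6 to 47.2 in control.

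Ddc and Rasgrf1 were lower in Mest-KO with wide spread. Ddc, which encodes the decarboxylase that makes dopamine and serotonin, had 316, 376 and 305 in Mest-KO, against 563, 492 and 378 in control. The groups nearly touched, at 376 and 378. Its log2 difference was -0.51 (SE 0.169, limma unadjusted p 0.0222, adjusted 0.909). In the deposited scaling the groups overlapped, and the difference was -0.46 without Mest-KO 3 and -0.44 in the 4 pools of both sexes. Rasgrf1, a calcium-responsive activator of Ras expressed in neurons, had 89.5, 156 and 353 in Mest-KO, against 370, 400 and 366 in control. It had the largest fitted decrease of the list, -1.15 (SE 0.464, limma unadjusted p 0.0452, adjusted 0.909), but Mest-KO 3 sat at the edge of the tight control range. The other Rasgrf1 probe sets gave -1.68 and -1.26. Without Mest-KO 3 the difference was -1.72, with an adjusted limma p of 0.482 and of 0.0276 with the trend. Without Mest-KO 1 it was -0.69 and in the 4 pools of both sexes -0.64, so single pools set its size.

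The zinc finger gene Peg3 was higher in Mest-KO. This paternally expressed gene encodes a repressor linked to maternal care and growth in mice. It lies beside Usp29, a ubiquitin peptidase gene, and Zim1. Peg3 had 7110, 7924 and 7138 in Mest-KO, against 6190, 6317 and 6330 in control, with no overlap. The log2 difference was 0.23 (SE 0.0826, limma unadjusted p 0.0286, adjusted 0.909), its other probe sets past the filter gave 0.17 and 0.20, and it was 0.26 both without Mest-KO 3 and in the 4 pools of both sexes. Averaging all Peg3 probe sets, dim ones included, turned it to -0.10. Usp29, whose start window overlaps that of Peg3, differed by -0.13 (SE 0.124) with overlapping groups. Zim1 was below the filter, at 12.5 to 38.4 in Mest-KO and 5.29 to 14.4 in control.

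**Figure D4:**
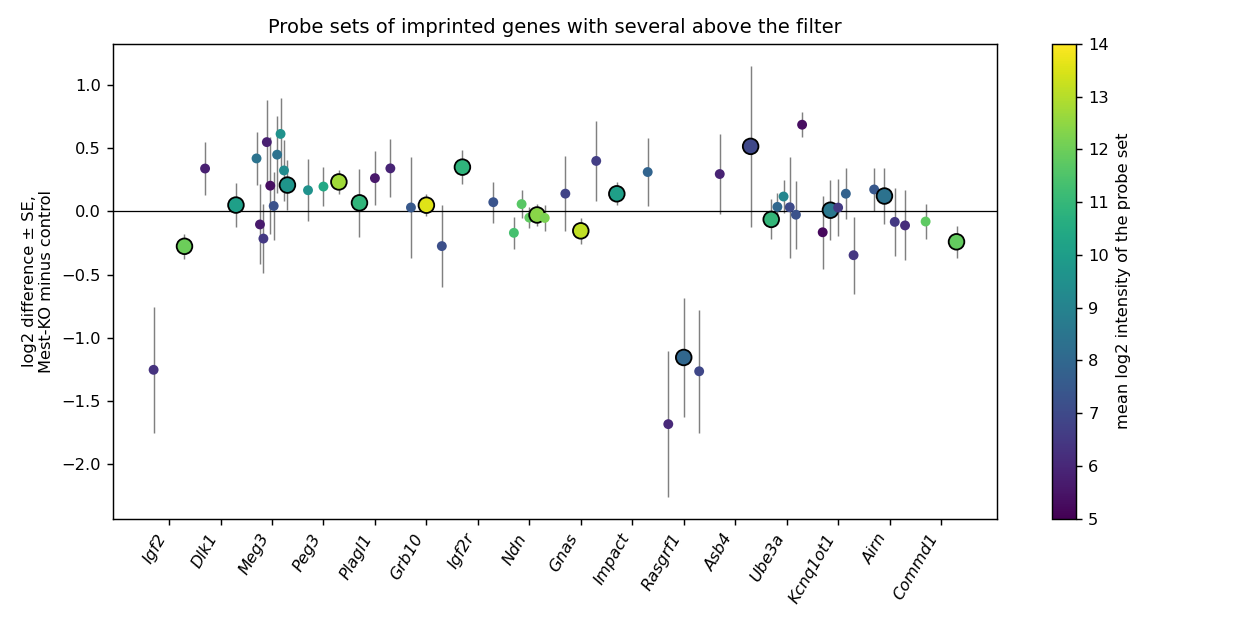
Log2 difference, Mest-KO minus control, with its SE, of each probe set past the filter for the 16 members with at least 2, coloured by mean log2 intensity, the probe set read for the gene larger and outlined. The 3 Rasgrf1 probe sets lie between -1.68 and -1.15 and the 3 Peg3 probe sets between 0.17 and 0.23, while the 10 Meg3 probe sets run from -0.21 to 0.61.

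In the Prader-Willi and Angelman region, Magel2 was the member of smallest p. This MAGE family gene, which encodes a regulator of endosomal protein recycling, had 49.9, 49.9 and 36.3 in Mest-KO, against 71.6, 56.7 and 59.1 in control. The groups did not overlap on this scale, at intensities close to the filter of 34.4. In the deposited scaling they did, with 45.0, 47.9 and 54.1 in Mest-KO, against 71.2, 49.1 and 58.3 in control. The log2 difference was -0.47 (SE 0.163, limma unadjusted p 0.0266), and with the trend, which gives dim genes a wider spread, the adjusted p was 0.864. It was -0.27 in the deposited scaling, where Magel2 left the genes with an unadjusted p under 0.05, -0.33 without Mest-KO 3 and -0.59 in the 4 pools of both sexes. Ndn, the related necdin gene, had 5170 to 5586 in Mest-KO and 5445 to 5516 in control, a difference of -0.03. The ubiquitin ligase gene Ube3a gave -0.06, the ring finger gene Mkrn3 0.20, and Peg12 0.08. Snrpn, a splicing protein gene, gave -0.05 from a dim probe set of its own, and 6 brighter or dimmer probe sets that it shares with Snurf were left out of the comparison.

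The paternally expressed Mest, which encodes a hydrolase-like protein and is also known as Peg1, had 9185, 8510 and 8230 in Mest-KO, against 8702, 8239 and 7878 in control. Its groups overlapped, and the log2 difference was 0.06 with a 95% interval from -0.148 to 0.273. Nap1l4, a histone chaperone gene, had 7609, 7617 and 8555 in Mest-KO, against 7543, 7454 and 7670 in control, a difference of 0.07. These groups overlapped through control 3. The membrane protein gene Cd81 gave 0.01, Tssc4 -0.07, the lipid transfer gene Osbpl5 0.11, and the transporter gene Slc22a18 -0.50 (SE 0.481), all from the cluster controlled by Kcnq1ot1. In that cluster Ascl2, a transcription factor of trophoblast, was below the filter, at 2.10 to 81.7 in Mest-KO and 2.71 to 18.8 in control.

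Noncoding RNAs of the imprinted clusters did not pass the test. Kcnq1ot1, the antisense RNA that silences its neighbours in cis, differed by 0.01 and its 5 probe sets ran from -0.35 to 0.14. Airn, which overlaps and represses Igf2r on the paternal copy, differed by 0.12 (SE 0.211) and its 4 probe sets ran from -0.11 to 0.17. Since the 2 transcripts overlap, a probe set in the shared stretch need not read 1 of them alone. Meg3, the maternally expressed RNA of the Dlk1 cluster, differed by 0.21 (SE 0.194), and 8 of its 10 probe sets past the filter were higher in Mest-KO and 2 lower. Among the 16 members with at least 2 probe sets past the filter, the signs agreed in 9. They were mixed in 7, namely Meg3, Grb10, Ndn, Gnas, Ube3a, Kcnq1ot1 and Airn.

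The retrotransposon-derived Peg10, essential in the placenta, differed by -0.08 and its divergent neighbour Sgce, the sarcoglycan epsilon gene, by -0.23 (SE 0.171). In the same cluster Asb4, which encodes a ubiquitin ligase adaptor, had the largest fitted increase of the list, 0.51. Its intensity was 76.4, 278 and 152 in Mest-KO 1 to 3, against 192, 117 and 49.5 in controls 1 to 3. Both groups held high and low pools, and the SE was 0.628. Impact, a regulator of translation under stress, had 1057 to 1154 in Mest-KO and 975 to 1052 in control, without overlap, a difference of 0.14 (limma unadjusted p 0.138). Commd1, a copper and NF-kappaB regulator whose intron holds Zrsr1, had 2905 to 3768 in Mest-KO and 3848 to 4149 in control. Its difference was -0.24, and its second probe set gave -0.08.

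Asb4 ran with the mesenchyme markers, which differed among the pools of both groups. Over the 6 arrays its Pearson r with their mean log2 level was 0.985 (exact permutation p 0.00139, adjusted over 32 relations 0.0444) and Spearman's rho was 1.00 (exact p 0.00278, adjusted 0.0889). Both exact p-values are the smallest that the 720 orders of 6 arrays can give. Without the 2 arrays farthest from the median, control 3 and Mest-KO 1, r was 0.975. Plagl1 followed with r = 0.870 (exact p adjusted 0.267), which was 0.686 without those arrays. On the negative side Gnas had r = -0.877 (exact p adjusted 0.267) and Cdkn1c r = -0.790 (exact p adjusted 0.278), which were -0.937 and -0.985 without those arrays. Of the 32 members, 2 had r over 0.8 (6.25%), against 4.54% of all genes. No member besides Asb4 passed an adjusted p of 0.05 for r. The 6 arrays had the same order by Asb4 and by the marker level, and the part of mesenchyme in the Asb4 level was not tested.

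**Figure D5:**
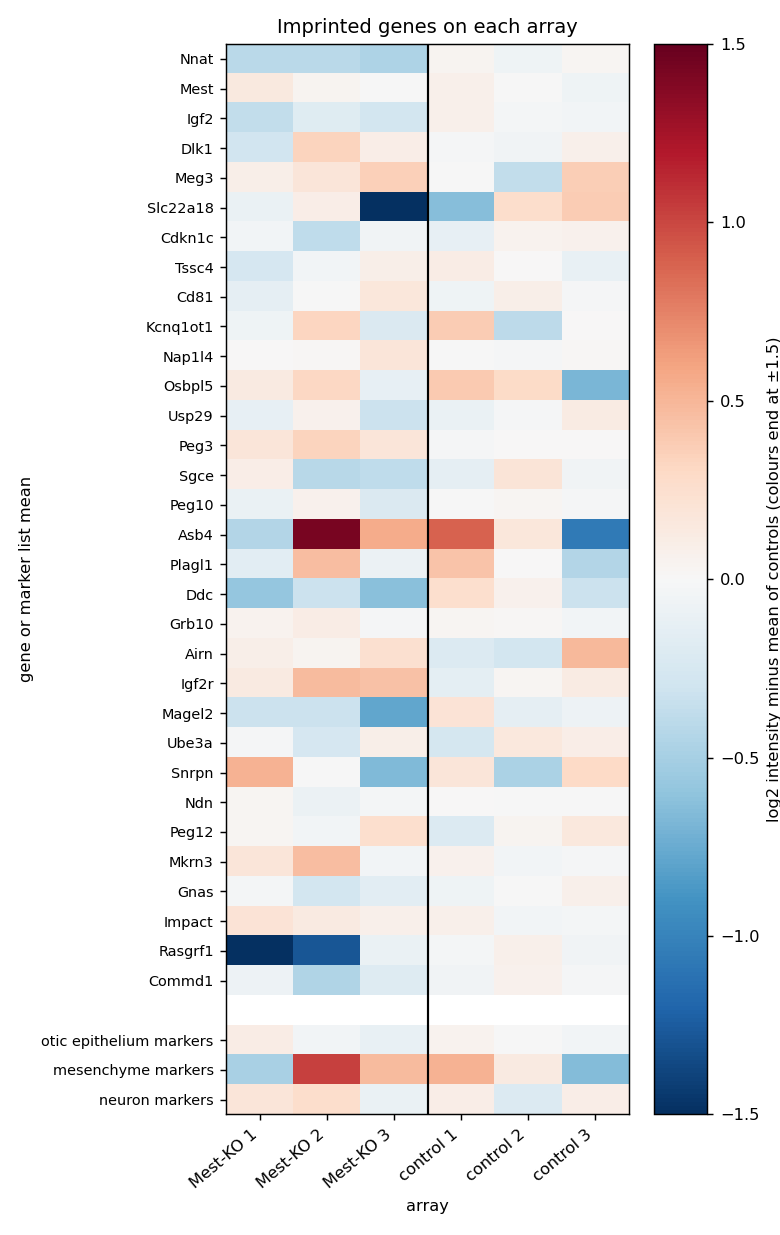
Log2 intensity of each member, and mean of each marker list, minus its mean over the controls, Mest-KO 1 to 3 left of controls 1 to 3, with colours ending at 1.5 either way. Nnat, Igf2, Ddc and Rasgrf1 are lower on the Mest-KO side, and Asb4 is high in Mest-KO 2 and control 1 and low in Mest-KO 1 and control 3.

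Further genes of the imprinting pathway were read from lists. Of 46 other imprinted genes or neighbours 26 were past the filter, and 0 passed the test with or without the trend in limma, where 2 (7.69%) had an unadjusted p under 0.05, near the 5.14% of all genes. These were Rian, a noncoding RNA of the Meg3 cluster, and Pde10a, a phosphodiesterase gene. Rian had 2923, 3041 and 2714 in Mest-KO, against 2397, 2288 and 2537 in control, a log2 difference of 0.26 (SE 0.0880) without overlap, and Pde10a differed by 1.03 (SE 0.355). The lower genes of smallest p were H13 at -0.19 and its intronic neighbour Mcts2 at -0.16. Of 21 genes that set or keep imprints, such as DNA methyltransferases and TET enzymes, 19 were past the filter, 9 higher and 10 lower, and 0 passed the test. Arid4a (0.23), Tet1 (0.17), Tet3 (-0.30) and Zfp445 (-0.13) had the smallest p in each direction.

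Binding partners of imprinted products, among them the insulin and IGF receptors and their substrates, had 11 of 12 genes past the filter. Of these 10 were higher and 1 lower in Mest-KO, where 49.1% of all genes were higher. The median log2 difference was 0.09 against -0.00 over all genes, and 0 passed the test, with or without the trend in limma. At an unadjusted limma p under 0.05 stood 1 (9.09%), against 5.14% of all genes. No test was made over this list. The largest contrasts by p were Siah1a and Insr. The ubiquitin ligase gene Siah1a was higher by 0.33 with overlapping groups. The insulin receptor gene Insr was higher by 0.21 without overlap, where 10.6% of all genes did not overlap. Insr had 701, 717 and 632 in Mest-KO, against 595, 593 and 584 in control. The 1 lower gene was Irs1, the insulin receptor substrate, at -0.08.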

How the data were processed

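Affymetrix arrays measured otic vesicle RNA in 3 Mest-KO and 3 control pools. Per the labels' protocols, dispase-treated tissue gave 300 ng of total RNA per array for labelling. The submitters' processing notes name Affymetrix Expression Console 1.1. The deposited values are linear probe set intensities that the authors scaled to a trimmed mean of 500 per array (2% trimmed at each end, as the values show). The sources used here do not name the summarising algorithm, and no detection calls were used.

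After a floor of 1, log2 intensities were quantile normalized between arrays. Control probe sets (64) were left out. Platform annotation gave 1 symbol to 34945 of 45037 probe sets, several to 932, and 9160 are unnamed here. RefSeq updated 34741 symbols. Each gene was read from its brightest probe set, and kept if its mean passed the 40th percentile (intensity 34.4), which left 12462 genes and 27022 probe sets. A level is not comparable between probe sets. The comparison used limma 3.58.1 under R 4.3.3 (eBayes without trend) at a Benjamini-Hochberg adjusted p under 0.05 over all genes, after tests on simulated data. P-values measure only the spread between these arrays, whose number limits the precision. Permutation tests were exact. Figures used matplotlib 3.10.9 in Python 3.11.15.

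The members, lists and the rule for named genes were chosen with earlier results of these data known. By that rule every measured member is named. Values on every array are given for Nnat, the 6 brightest members, members with an unadjusted p under 0.05 and the largest rise and fall. Each other list gives 2 genes of smallest p per direction. Other genes and values shown were chosen after their values were seen. Alternatives were other filters, scalings, a floor of 16, variance trend, array weights, replicate block, mesenchyme markers as covariate, other probe set rules, a threshold of 0.10 and leaving out arrays.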

Additional observations from a re-analysis of the deposited data

Results flagged for a closer look

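One probe set that carries both Snurf and Snrpn, and so was outside the comparison, had intensities of 24.9, 4.45 and 14.5 in Mest-KO 1 to 3, against 1.62, 1.66 and 2.69 in controls 1 to 3. The log2 difference was 2.60, with every Mest-KO pool above every control pool. All of these values lie under the filter of 34.4, and the other probe sets with the same pair of symbols that lie above it differed by between -0.20 and 0.02. The brightest of those went the other way without overlap, with 2277, 1748 and 2267 in Mest-KO 1 to 3, against 2346, 2400 and 2419 in controls 1 to 3. The rest of those above the filter overlapped.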

How the results depend on the processing

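Without a variance trend, limma called 0 genes, 0 probe sets and 0 members. For this setting, counts follow as genes, then probe sets. They were 0 and 1 with no filter, 7 and 9 with a filter at the 60th percentile, 25 and 15 with median centring, 7 and 1 at a threshold of 0.10, and 1 gene with the most variable probe set. Median centring moved the median of all genes to -0.14 and called 1 member, Rasgrf1 (-1.30, or -1.17 relative to that median, adjusted p 0.0398). There 24 of 32 members were below 0. Relative to the median 4 members changed sign under it, and the same number with the deposited scaling: Cd81, Grb10, Mest and Snrpn. With a variance trend the counts were 13 and 14, with robust fitting 16 and 17, with the deposited scaling 15 and 16, with the mesenchyme covariate 20 and 16, and with no filter 9 and 13. They were 6 genes with the mean of probe sets, and 7 and 10 in the pools of both sexes, a setting added after seeing the data. Nnat was the 1 member gene called, and the 1 probe set where counted, with the trend, robust fitting, the deposited scaling, the covariate and the mean of probe sets, at -0.42, -0.42, -0.48, -0.42 and -0.42. With no filter, the both-sex pools and the block it was not called. Leaving out 1 array at a time gave 0 calls without the trend. With it, counts ran from 6 to 17 genes, from 7 to 14 probe sets and from 0 to 1 member genes, with Nnat at -0.46 to -0.41. The 1 member was Nnat without Mest-KO 1 (-0.44, 15 genes, 14 probe sets) or Mest-KO 2 (-0.43, 8 genes, 11 probe sets) and Rasgrf1 without Mest-KO 3 (17 genes, 13 probe sets). The counts were 6 and 7 without control 1, 7 and 7 without control 2, and 9 and 9 without control 3, with 0 members. No member probe set was called in any fit that left out 1 array. Tbx1 ran from -0.14 to 0.06, and was above 0 without Mest-KO 2 (0.04), Mest-KO 3 (0.02) or control 1 (0.059). Peg3 was reversed to -0.10 by the mean of probe sets, with or without the trend.

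The groups share replicate numbers, but same-numbered arrays did not deviate together (correlations -0.04, -0.01 and 0.03), so they share only a number. With the replicate block limma called 0 genes and Nnat stood at -0.42 (adjusted p 0.871). With the trend and the block the counts were 8 genes and 10 probe sets, with 0 members (Nnat adjusted p 0.0631).

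The main limits are 3 arrays per group, pools in which mesenchyme and sex vary, 1 probe set for Nnat, and probe sets near the filter for Magel2 and Slc22a18.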

Other observations

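Of the 6 Ube3a probe sets past the filter, 1 dim probe set was higher in Mest-KO, at 52.5, 53.9 and 46.1, against 30.7, 32.0 and 31.9 in control. The control values all lie under the filter of 34.4, which the probe set passed only through its Mest-KO values, so no test of it is given. It is nonetheless included in both counts over probe sets given above. The log2 difference was 0.69, and the other 5 Ube3a probe sets lay between -0.06 and 0.12. Its gene value does not come from it, and it was picked out after its values were seen.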
